A study of Mus musculus with 4 samples.

Results

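Receptors that bind the constant part of antibodies, receptors of the triggering receptor expressed on myeloid cells (TREM) family, and the adaptor proteins that carry their signals were examined in young and adult mouse cartilage 3 days after injury. The group comprised 9 of the 24532 genes of the expression table and was chosen by gene symbol: the adaptors Fcer1g and Tyrobp, the IgG receptors Fcgr1, Fcgr2b, Fcgr3 and Fcgr4, the neonatal Fc receptor Fcgrt, and Trem1 and Trem2. All 9 genes were found, and all were above 0 in each library.

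RNA sequencing was carried out on articular cartilage of wild type C57BL/6 mice in 4 groups, which were sham and injured cartilage of young mice and the same pair of adult mice. The young mice were 3 weeks old. For the adult mice the labels give 12 weeks in the title and 14 weeks in another field, and the study's methods give a younger age. The labels name DMM surgery, a destabilization of the medial meniscus, for the injured samples, whereas the methods describe a full-thickness cartilage injury made with a needle in the groove of the femur of male mice. Cartilage was taken on day 3, except that the label of the adult sham sample covers day 3 to day 14. Each library was made from cartilage pooled from several mice, with more mice in the injured pools than in the control pools, and each group is 1 library. The labels and the study's results call the control mice sham, whereas its methods call them uninjured. The word sham is used here as in the labels, and whether the control joints were opened is left in doubt. No difference between these libraries therefore has a replicate check, no error can be attached to a single value, and no test between groups was made. The values are FPKM, fragments per kilobase of transcript scaled by the mapped fragments of the library, so that levels of different genes can be compared per length. The labels give chondrocyte as the cell type, and all 10 chondrocyte markers examined, such as Col2a1 and Acan, reached 1 FPKM in each library. So did 14 of 20 macrophage markers in young sham and 17 of 20 in adult sham cartilage. The adult sham library also held less of the B cell markers, with 7 of 9 at least 2-fold lower than in young sham cartilage.

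Most of these receptors have no signalling tail of their own. Fcgr1, Fcgr3 and Fcgr4 encode activating IgG receptors that assemble with the common gamma chain encoded by Fcer1g, and Trem1 and Trem2 pair with DAP12, the product of Tyrobp. Both adaptors carry an immunoreceptor tyrosine-based activation motif (ITAM), which recruits the kinase Syk once it is phosphorylated. Fcgr2b encodes the inhibitory IgG receptor, whose inhibitory motif (ITIM) recruits phosphatases. Fcgrt differs from the others in that it is related to MHC class I, pairs with beta-2 microglobulin, and protects IgG and albumin from degradation inside cells. Apart from Fcgrt these genes are known as genes of macrophages, neutrophils and other leukocytes, and in the joint also of osteoclasts.

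Where these genes lie, and how alike they are, bears on how far their values can be separated. Fcgr2b (chr1:170960558-170976071 on GRCm38.p6, the assembly of mm10, minus strand), Fcgr4 (chr1:171018926-171029761, plus strand), Fcgr3 (chr1:171051169-171065915, minus strand) and Fcer1g (chr1:171229572-171234349, minus strand) lie close to each other on chromosome 1. Fcgr1 is at chr3:96282909-96293969 on the minus strand, Tyrobp at chr7:30413782-30417582 on the plus strand and Fcgrt at chr7:45092993-45103822 on the minus strand. Trem1 (chr17:48232713-48246927) and Trem2 (chr17:48346401-48352276) are both on the plus strand of chromosome 17. In the GENCODE M21 transcripts, 17.7% of the 31-base words of Fcgr3 also occur in Fcgr2b, and 9.70% of the words of Fcgr2b occur in another gene. For the other 7 genes the share was 1.31% or less. The longest identical run in the coding sequences of Fcgr2b and Fcgr3 is 129 bases, at coding bases 278 to 406 of Fcgr2b (exons within chr1:170966674-170968081) and 263 to 391 of Fcgr3 (exons within chr1:171054167-171057792). It is shown in capitals with 15 bases on each side in lower case, since a fragment that lies within it cannot be assigned to either gene.
Fcgr2b: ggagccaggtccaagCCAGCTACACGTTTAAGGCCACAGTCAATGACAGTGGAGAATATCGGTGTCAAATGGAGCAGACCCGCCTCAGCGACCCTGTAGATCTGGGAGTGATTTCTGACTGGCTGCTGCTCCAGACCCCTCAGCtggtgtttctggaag
Fcgr3: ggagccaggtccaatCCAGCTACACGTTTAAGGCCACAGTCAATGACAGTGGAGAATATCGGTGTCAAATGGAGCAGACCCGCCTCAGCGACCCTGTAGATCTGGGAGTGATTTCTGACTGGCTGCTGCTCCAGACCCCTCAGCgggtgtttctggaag
The single values of Fcgr2b and Fcgr3 are uncertain to that extent. Between Fcgr4 and each of the other IgG receptors the longest coding run was at most 14 bases.

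The sequence before the start sites was searched for 2 short motifs on both strands, in windows from 250 bases before to 50 bases after the start, which RefSeq (GRCm38.p6) gave for 8 of the 9 genes. The motifs were GAGGAA, a core of sites of the myeloid factor PU.1, and the interferon-stimulated response element. GAGGAA or its reverse complement occurred in the windows of 5 genes (Fcgr1, Fcgr3, Fcgr4, Trem1 and Trem2) and in 28.3% of all 32851 windows. The response element occurred in that of Fcgr4, against 3.44% of all windows. Neither motif was in the window of Fcer1g, Fcgr2b or Fcgrt. The 250 bases before the start of Fcgr1, Fcgr4, Trem2 and Fcgrt are printed because they stand for genes with large and with small changes after injury, with every match in capitals.
Fcgr1, chr3:96293970-96294219, minus strand: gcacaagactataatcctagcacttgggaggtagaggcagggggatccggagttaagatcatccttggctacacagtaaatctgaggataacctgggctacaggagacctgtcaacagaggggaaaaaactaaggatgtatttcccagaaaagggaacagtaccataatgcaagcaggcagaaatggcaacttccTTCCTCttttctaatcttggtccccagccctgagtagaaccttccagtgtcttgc
Fcgr4, chr1:171018676-171018925, plus strand: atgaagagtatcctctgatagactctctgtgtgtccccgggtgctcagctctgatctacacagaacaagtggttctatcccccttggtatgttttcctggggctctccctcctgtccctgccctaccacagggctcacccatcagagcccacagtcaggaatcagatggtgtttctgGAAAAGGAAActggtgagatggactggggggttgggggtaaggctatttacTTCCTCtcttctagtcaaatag
Trem2, chr17:48346151-48346400, plus strand: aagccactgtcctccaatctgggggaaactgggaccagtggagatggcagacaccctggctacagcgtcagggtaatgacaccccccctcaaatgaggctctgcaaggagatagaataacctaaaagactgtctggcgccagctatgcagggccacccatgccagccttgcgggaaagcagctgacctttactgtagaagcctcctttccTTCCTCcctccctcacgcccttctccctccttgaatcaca
Fcgrt, chr7:45103823-45104072, minus strand: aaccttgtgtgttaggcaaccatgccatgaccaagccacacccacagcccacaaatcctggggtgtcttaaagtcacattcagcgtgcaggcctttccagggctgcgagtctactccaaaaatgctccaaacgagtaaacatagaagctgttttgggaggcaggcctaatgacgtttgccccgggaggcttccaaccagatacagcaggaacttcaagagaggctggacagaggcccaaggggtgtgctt
In Fcgr1 the GAGGAA match, read on the other strand as TTCCTC, begins 55 bases before the start site. In Trem2 TTCCTC begins 40 bases before the start, and in Fcgr4 it begins 22 bases before the start, while the response element begins 73 bases before the start. A match describes the letters only, and whether a factor was bound there was not measured.

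Of the 9 genes, 8 were at least 2-fold higher after injury in young cartilage and 8 in adult cartilage, where 4.57% and 6.90% of the 18181 genes above 0 in at least 1 library passed that threshold upward. The same 8 genes passed at both ages, which held for 3.01% of all genes. Fcgrt was the exception. With a pseudocount of 5 FPKM in place of 1 FPKM the count was 7 at each age, without Trem1. None of the 9 genes was at least 2-fold lower. The median log2 ratio of FPKM + 1 over the 9 genes was 2.73 in young and 2.20 in adult mice, against 0.00 and 0.14 over all genes tested. Adding 1 FPKM makes the ratio smaller where levels are low. In pooled tissue more cells of a type and more RNA per cell cannot be told apart. Macrophage markers moved with these genes: 18 of 20 were at least 2-fold higher after injury at each age, with a median ratio (log2) of 3.12 (young) and 2.11 (adult), and their summed level was 220.1 FPKM (sham) and 2319 (injured) in young, and 355.9 and 1990 in adult cartilage. The defining markers Adgre1, Csf1r and Cd68 were above 0 in each library, whereas Marco was listed at 0 in both sham libraries. Neutrophil markers had medians of 0.87 and 0.43, with 5 and 3 of 15 genes at least 2-fold higher. In young mice the count was 3 as TPM and 2 after quantile normalization. The part of these cells in the changes was not tested.

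**Figure D1:**
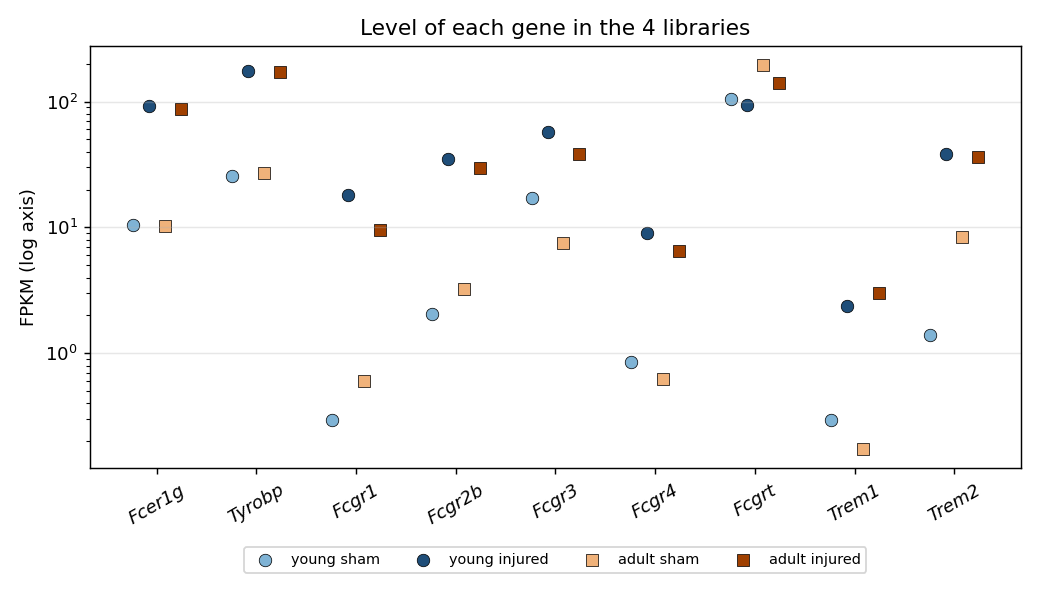
Level of each of the 9 genes in FPKM (log axis) in the 4 libraries, 1 point per library, so that no error is shown. The injured libraries lie above both sham libraries for every gene except Fcgrt, and the widest gap between the sham libraries is that of Trem2, with 1.39 (young) against 8.45 FPKM (adult).

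In both injured libraries the adaptors were the most abundant of the genes that rose. Tyrobp was at 25.5 FPKM (sham) and 174.5 FPKM (injured) in young, and at 27.1 and 170.8 FPKM in adult cartilage. Its injury ratio on the log2 scale was 2.73 in young and 2.61 in adult mice. Fcer1g was at 10.5 and 92.4 FPKM in young and 10.2 and 87.6 FPKM in adult cartilage, with log2 ratios of 3.02 and 2.99. Both genes thus reached the same range in the injured libraries of either age, from the same range in the sham libraries. Their difference between the ages of 0.11 for Tyrobp and 0.03 for Fcer1g, young minus adult on the log2 scale, turned negative when each library was brought to an equal FPKM sum (TPM), to −0.10 and −0.18, and was 0.40 and 0.30 after median-of-ratios scaling. The ratio of Fcer1g to Tyrobp within a library, which does not depend on scaling between libraries, was 0.412 (sham) and 0.530 (injured) in young, and 0.376 and 0.513 in adult cartilage. Among all genes tested, Fcer1g ranked 65th and Tyrobp 95th by log2 ratio in young mice, and 42nd and 69th in adult mice.

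The activating IgG receptor Fcgr1, which binds IgG with high affinity, was nearly silent before injury. It was at 0.295 FPKM (sham) and 18.0 FPKM (injured) in young, and at 0.606 and 9.55 FPKM in adult cartilage. The log2 ratio was 3.88 in young mice, the 19th largest of all genes, and 2.72 in adult mice. The difference between the ages was 1.16 and lay between 1.17 and 1.39 after the other scalings. With a pseudocount of 5 FPKM it was 0.75, and with 0.1 FPKM it was 1.75. Its sham levels rest on few fragments, about 20 in young and 48 in adult sham cartilage, if the smallest step of the FPKM values is 1 fragment. Fcgr4, the other activating receptor with a low level, was at 0.854, 9.0, 0.623 and 6.45 FPKM in young sham and injured, then adult sham and injured cartilage. Its log2 ratios were 2.43 in young and 2.20 in adult mice, and its sham values correspond to about 28 and 24 fragments.

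Fcgr3, the low-affinity activating receptor also known as CD16, had the highest level of the IgG receptors in each library. It was at 17.1 FPKM (sham) and 57.7 FPKM (injured) in young, and at 7.57 and 38.4 FPKM in adult cartilage. The rise was smaller than that of the other IgG receptors in young mice, with a log2 ratio of 1.70, and was 2.20 in adult mice. Fcgr3 and Trem1 were the 2 genes of the group with the larger ratio in adult mice, and 7 had it in young mice, of which Fcer1g, Tyrobp and Fcgr4 changed sides as TPM. After the 3 other scalings the difference of Fcgr3 between the ages, −0.51 on the deposited scale, was between −0.76 and −0.24.

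The inhibitory receptor Fcgr2b rose more than Fcgr3. It was at 2.07 FPKM (sham) and 35.0 FPKM (injured) in young, and at 3.27 and 29.9 FPKM in adult cartilage, with log2 ratios of 3.55 and 2.85. The balance of Fcgr3 to Fcgr2b transcripts changed accordingly. The ratio of Fcgr3 to Fcgr2b was 8.27 in young sham and 1.65 in young injured, and 2.31 and 1.29 in the adult libraries. Fcgr1, Fcgr3 and Fcgr4 summed to 8.83 times the level of Fcgr2b (sham) and 2.42 (injured) in young, and 2.69 and 1.82 in adult cartilage. Young sham cartilage stood apart in this ratio, and the other libraries were within 1.82 to 2.69. The ratio of Fcgr1 to Fcgr2b went the other way, from 0.142 to 0.515 in young and from 0.185 to 0.320 in adult mice. The ratio of Fcgr4 to Fcgr2b went from 0.413 to 0.257 in young and from 0.190 to 0.216 in adult mice, so that in adult mice Fcgr3 was the activating receptor that declined relative to Fcgr2b. As shares of the summed FPKM of the 4 genes, Fcgr3 took 84.2%, 48.2%, 62.7% and 45.6% in young sham and injured, then adult sham and injured cartilage. Fcgr2b took 10.2%, 29.2%, 27.1% and 35.4%, Fcgr1 1.45%, 15.1%, 5.02% and 11.3%, and Fcgr4 between 4.20% and 7.65%. The identical run of Fcgr2b and Fcgr3 printed above limits how sharply these shares can be read.

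**Figure D2:**
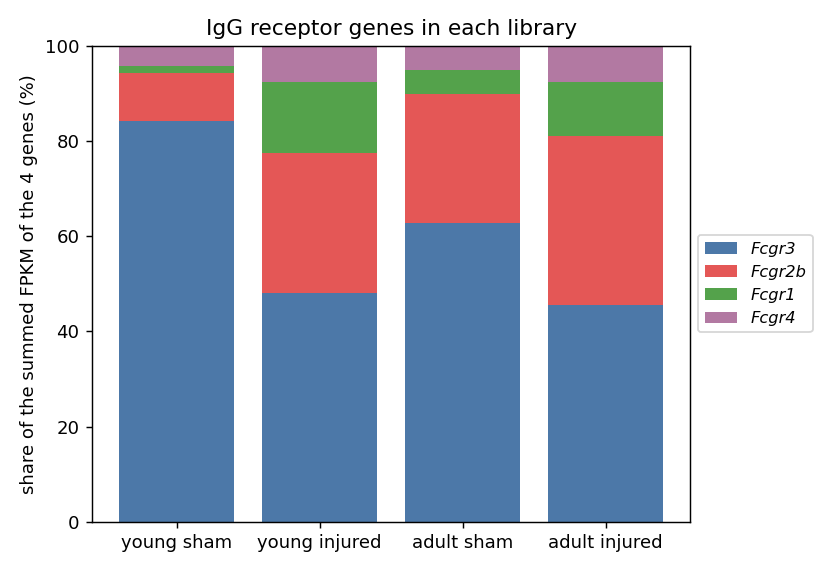
Share of each IgG receptor gene in the summed FPKM of Fcgr1, Fcgr2b, Fcgr3 and Fcgr4, in percent, as 1 stacked bar per library. Fcgr3 makes up 84.2% in young sham cartilage and 48.2% and 45.6% in the injured libraries, where Fcgr2b and Fcgr1 take larger shares than in the sham library of the same age.

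Trem2, a lipid- and apolipoprotein-binding receptor of macrophages, showed the widest difference between the ages of the group. In young mice its ratio of FPKM + 1 was also the largest of the group. Fcgr1 exceeded it without an added constant (61.3-fold against 27.6-fold) and with 0.1 FPKM added (5.52 against 4.69 on the log2 scale). As TPM, where values are larger and the added 1 weighs less, Fcgr1 exceeded it too (4.45 against 4.25). Trem2 was at 1.39 FPKM (sham) and 38.3 FPKM (injured) in young, and at 8.45 and 36.0 FPKM in adult cartilage. The log2 ratio was 4.04 in young mice, the 17th largest of all genes, and 1.97 in adult mice. The difference of 2.07 was between 2.07 and 2.29 under the 4 scalings, 1.15 with a pseudocount of 5 FPKM and 2.61 with 0.1 FPKM. It came with unlike sham levels, since the injured libraries differed by only −0.09 (adult against young). Relative to Tyrobp, Trem2 was at 0.0544 (sham) and 0.219 (injured) in young, and 0.312 and 0.211 in adult cartilage. Trem1, which amplifies inflammatory responses of neutrophils and monocytes, had a low level in each library. It was at 0.297 (sham) and 2.37 FPKM (injured) in young and at 0.173 and 3.02 FPKM in adult cartilage, with about 23 and 16 fragments in the sham libraries. Its log2 ratios were 1.38 and 1.78, and with a pseudocount of 5 FPKM they fell below 2-fold, at 0.48 and 0.63. The ratio of Trem1 to Trem2 was 0.213 (sham) and 0.0619 (injured) in young, and 0.0205 and 0.0839 in adult cartilage.

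Fcgrt had the highest level of the 9 genes in both sham libraries and did not pass 2-fold after injury. It was at 104.9 FPKM (sham) and 94.7 FPKM (injured) in young, and at 194.6 and 140.3 FPKM in adult cartilage. Injured against sham, the log2 ratio was −0.15 (young) and −0.47 (adult), and both values stayed below 0 under the 4 scalings, between −0.26 and −0.12 in young and between −0.74 and −0.37 in adult mice. B2m, its partner chain, was at 219.0, 485.0, 272.2 and 464.6 FPKM, with log2 ratios of 1.14 (young) and 0.77 (adult).

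**Figure D3:**
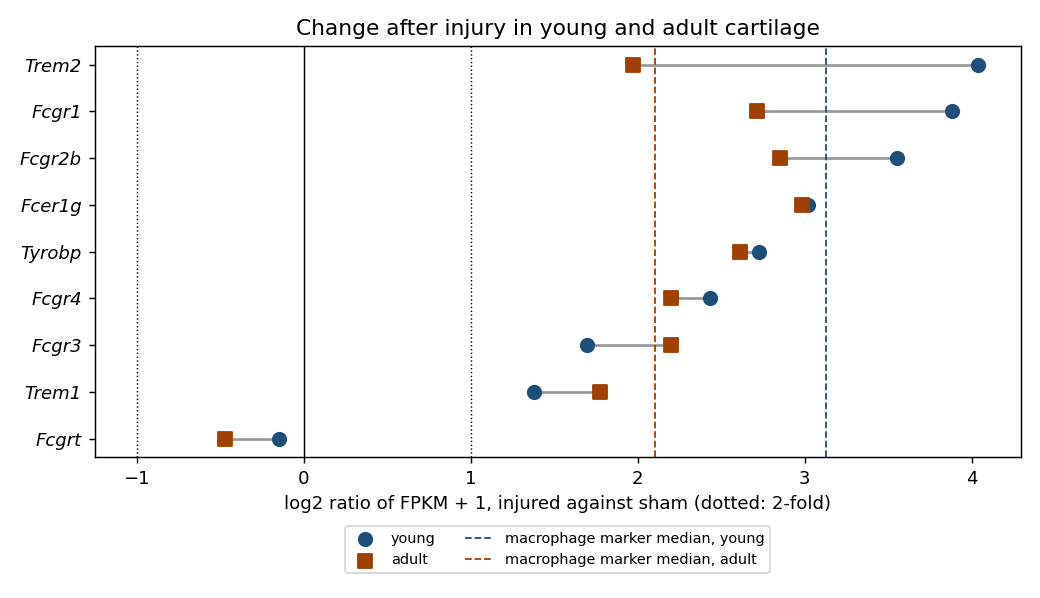
Log2 ratio of FPKM + 1 between injured and sham cartilage for each gene in young (circles) and adult mice (squares), with dashed lines at the median of 20 macrophage markers, 3.12 (young) and 2.11 (adult). Trem2 and Fcgr1 show the widest gaps between the ages, Fcer1g and Tyrobp hardly any, and Fcgrt lies below 0 at both ages.

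Against the macrophage markers of the same comparison, the group took different places at the 2 ages. In young mice Trem2 and Fcgr1 exceeded 18 of the 20 markers and Fcgr2b 16, whereas Fcer1g exceeded 9, Tyrobp 7, Fcgr4 5, Fcgr3 and Trem1 2, and Fcgrt none. In adult mice Fcer1g exceeded 17 markers, Fcgr1 and Fcgr2b 16, Tyrobp 15, Fcgr3 and Fcgr4 11, Trem2 9 and Trem1 8. Relative to the marker median, Trem2 was thus at 0.92 in young and −0.14 in adult mice, and Fcer1g at −0.11 and 0.88.

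Age was compared in sham cartilage first. Between adult and young sham cartilage 1 of the 9 genes was at least 2-fold higher and 1 at least 2-fold lower, where 2.66% and 10.6% of all genes were. Trem2 was the higher one, with a log2 ratio of 1.98, the 102nd largest of all genes, and Fcgr3 the lower one at −1.08. For Fcgr3 the call was lost after median-of-ratios scaling (−0.73) and quantile normalization (−0.77) and with a pseudocount of 5 FPKM (−0.81). Fcgrt was at 0.88 and passed the threshold after these scalings, at 1.27 and 1.11. The values were 0.48 for Fcgr2b, 0.31 for Fcgr1, 0.08 for Tyrobp, −0.04 for Fcer1g, −0.14 for Trem1 and −0.19 for Fcgr4. Those of Fcer1g and Fcgr4 changed sign with the scaling. Of the macrophage markers, 6 of 20 were at least 2-fold higher in adult sham cartilage, with a median of 0.53, and of the B cell and plasma cell markers 7 of 9 were at least 2-fold lower, with a median of −1.61. Their part in the values of Trem2, Fcgr3 and the B cell-expressed Fcgr2b was not tested. The label of the adult sham library covers a longer time than the others, and age and time cannot be told apart in this comparison.

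Between the injured libraries none of the 9 genes differed 2-fold, where 1.80% of all genes were higher and 3.09% lower in adult mice. The median log2 ratio of adult against young injured cartilage was −0.09. Fcgr1 had the lowest value, −0.85, followed by Fcgr3 (−0.57) and Fcgr4 (−0.43), and these 3 activating receptors stayed below 0 under the 4 scalings. Fcgr2b was at −0.22 and also stayed below 0. Fcgrt was at 0.56 and Trem1 at 0.25, and both stayed above 0. Tyrobp, Fcer1g and Trem2 were between −0.09 and −0.03, and changed sign with the scaling. The injury ratios of adult mice and the comparison of the shams use the same adult sham library, so that they are not independent of each other, whereas the injured libraries can be compared without it.

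**Figure D4:**
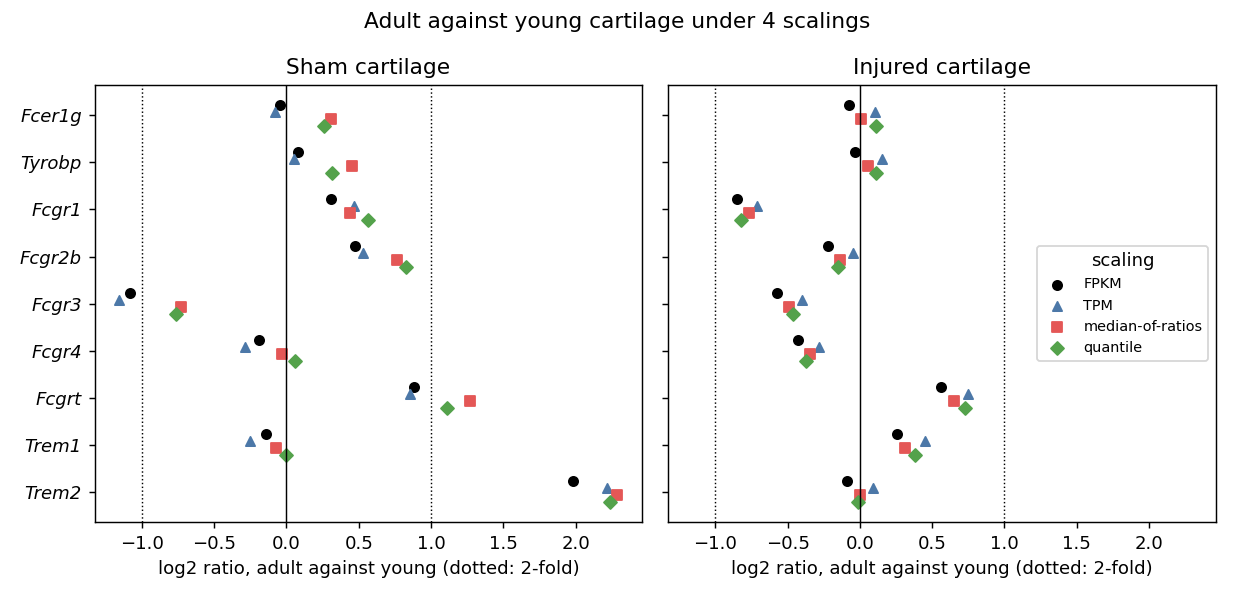
Log2 ratio of adult against young cartilage for each gene, in sham (left) and injured libraries (right), from the deposited FPKM and after 3 other scalings (TPM, median-of-ratios and quantile). Trem2 is between 1.98 and 2.29 in sham cartilage and between −0.09 and 0.09 in injured cartilage, and the IgG receptors Fcgr1 and Fcgr3 are below 0 in injured cartilage under each scaling.

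Of 25 TREM relatives and other receptors tied to Tyrobp or Fcer1g, 15 were at least 2-fold higher after injury at the young and 12 at the adult age, with a median ratio (log2) of 1.21 and 0.99 and none lower. The C-type lectin receptors Clec4n (dectin-2) and Clec4d rose by 3.77 and 3.70 on the log2 scale in young mice, and Clec4d rose by 3.71 in adult mice. Clec4n measured 0.0614 FPKM (sham) and 13.5 FPKM (injured) in young cartilage and 7.45 FPKM in injured adult cartilage, and adult sham cartilage listed it at 0. Cd300c2 was at 3.59 and 2.51. The TREM relatives had low levels, and 2-fold was not reached with 1 FPKM added, with ratios of 0.78 and 0.35 for Trem3, 0.97 and 0.64 for Treml2, 0.71 and 0.88 for Treml4 and 0.70 and 0.58 for Treml1. Without the added 1 FPKM all 4 differed by more than 2-fold in young mice, where Treml4 measured 0.609 (sham) and 1.64 FPKM (injured) and Trem3 measured 1.71 and 3.67 FPKM. In adult mice Treml4 measured 0.205 and 1.22 FPKM. Not all members of this list pair with the adaptors: Treml1 and Treml2 are listed as TREM relatives, and Csf1r, which is also among the macrophage markers, is a receptor kinase with a signalling tail of its own.

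Of 16 inhibitory receptors, 10 were at least 2-fold higher at the young and 11 at the adult age, with medians of 1.48 and 1.40. With 5 FPKM added, 4 passed in young and 5 in adult mice. Lilrb4a was at 3.65 and 3.08, and Pirb at 2.78 and 2.35. Sirpa, the receptor for the signal CD47, was at 1.21 and 1.46. Among 13 other Fc receptor genes, of which 11 were above 0 in a library, 1 in young and 3 in adult mice were at least 2-fold higher. In young mice the count was 4 with 0.1 FPKM added and 2 as TPM. Fcrls, a myeloid Fc receptor-like gene, was at 0.795 FPKM (sham) and 17.2 FPKM (injured) in young, and at 2.39 and 15.1 FPKM in adult cartilage. The IgE receptor genes Fcer1a and Ms4a2, which mark mast cells and basophils, stayed at or under 0.305 FPKM, and Pigr and Fcgbp were listed at 0 in all 4 libraries. Of 7 other adaptor genes, Hcst was at 1.82 in young and 0.57 in adult mice, and was the only 1 at least 2-fold higher in young mice. Its product DAP10 has no ITAM and signals through PI3 kinase. The B cell receptor chains Cd79a and Cd79b were at 0.47 and 0.54 in young and 0.84 and 0.41 in adult mice.

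Downstream of the ITAMs, 18 of 34 genes for kinases, scaffolds and effectors were at least 2-fold higher at the young and 20 at the adult age, with medians of 1.09 and 1.26. With 5 FPKM added, 7 and 8 passed, and the young median was 0.49. Syk was at 4.38 FPKM (sham) and 10.1 FPKM (injured) in young, and at 2.09 and 9.19 FPKM in adult cartilage, with log2 ratios of 1.05 and 1.72. The Src-family kinases Lyn and Fgr were at 1.81 and 1.79 in young and 1.87 and 1.77 in adult mice, whereas Src itself was at −0.23 and 0.43 and Fyn at 0.51 and 0.74. Among the scaffolds, Lat2 was at 2.09 and 2.25 and Lcp2 (SLP-76) at 1.97 and 1.76. The oxidase subunit Ncf1 was at 2.07 and 1.79. Plcg2 was at 0.14 and 0.22, and Plcg1 at −0.67 and −0.19. Downstream of the ITIMs, 5 of 10 genes were at least 2-fold higher at each age. With 5 FPKM added, Inpp5d and Dok3 no longer passed in young mice, nor did Dok2 in adult mice. Inpp5d, the inositol phosphatase SHIP1, was at 1.62 and 2.21, and Ptpn6, the tyrosine phosphatase SHP-1, at 1.71 and 1.92, whereas the broadly expressed Ptpn11 (SHP-2) was at −0.14 and 0.01. The genes of these lists that rose are mostly known from leukocytes, and the macrophage marker medians of 3.12 and 2.11 stand beside them. Their part was not tested.

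**Figure D5:**
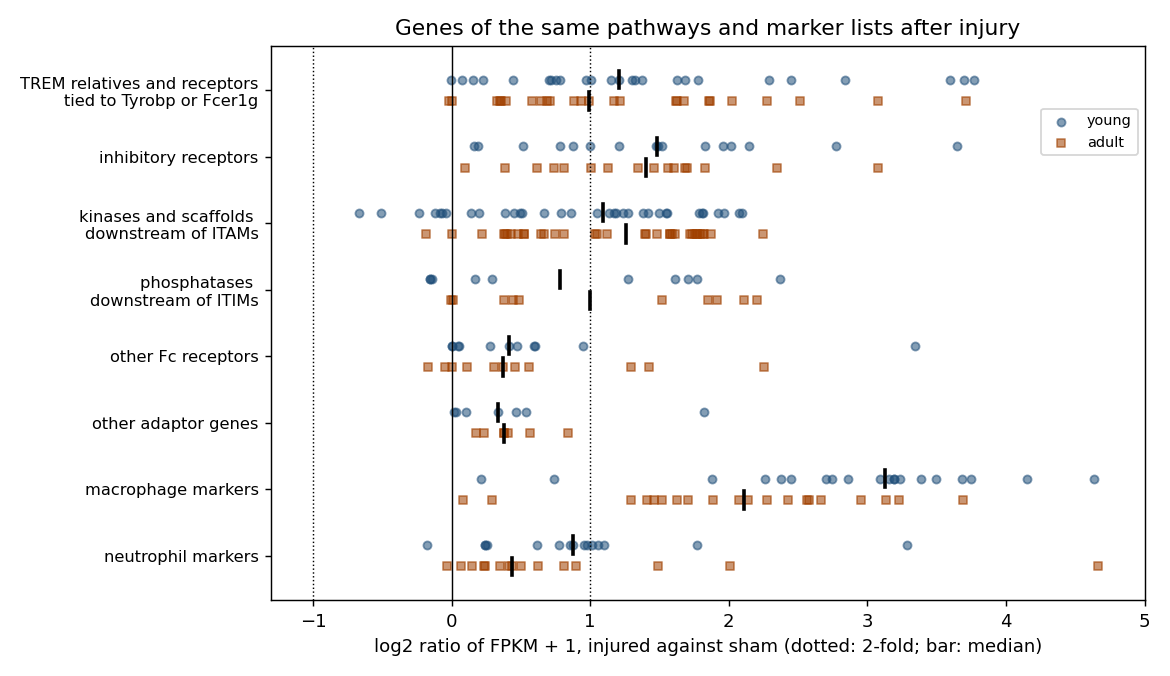
Log2 ratio of FPKM + 1 after injury for the genes of 6 lists of related receptors and signalling genes and of 2 marker lists, 1 point per gene above 0 in at least 1 library, in young (circles) and adult mice (squares), with the median as a bar. Inhibitory receptors have medians of 1.48 and 1.40, below the macrophage marker medians of 3.12 and 2.11.

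Ligands of the receptors were followed in the same libraries. Of 9 such genes above 0 in a library, 2 in young and 3 in adult mice were at least 2-fold higher after injury. In adult mice 1 was at least 2-fold lower. The medians were 0.02 and 0.77. Apoe, a ligand of TREM2, was at 791.5 FPKM (sham) and 1085 FPKM (injured) in young, and at 284.1 and 855.1 FPKM in adult cartilage, with log2 ratios of 0.45 and 1.59. Clu, another ligand of TREM2, was at 1208, 965.1, 3116 and 1468 FPKM and fell by 1.09 on the log2 scale in adult mice. Pglyrp1, a ligand of TREM1, was at 12.8, 21.2, 14.4 and 19.8 FPKM and did not reach 2-fold. The immunoglobulin heavy and kappa chain genes that were looked for were not found by symbol among the 24532 genes. Jchain, the joining chain gene, was at 0.157, 0.172, 1.03 and 1.06 FPKM. Of 18 genes tied to TREM2 in lipid-handling macrophages, 10 in young and 11 in adult mice were at least 2-fold higher, with medians of 1.16 and 1.12. With 5 FPKM added, 5 passed in adult mice. Gpnmb was at 0.372, 12.1, 3.46 and 8.51 FPKM, and Fabp5 at 22.0, 133.3, 11.8 and 72.5 FPKM. Spp1 rose by 2.56 in young mice, was at 0.86 in adult mice and was higher by 2.78 in adult than in young sham cartilage. Both Gpnmb and Spp1, like Trem2, thus had more RNA in adult than in young sham cartilage, whereas Apoe and Fabp5 were at −1.48 and −0.85 in that comparison. Of all 18 genes, 3 were at least 2-fold higher and 1 at least 2-fold lower in adult sham cartilage, with a median of −0.07.

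Genes with the most similar pattern were sought for the 7 genes of the group with a mean of at least 5 FPKM, as the smallest distance between log2(FPKM + 1) values centred over the 4 libraries. For Trem2 these were C1qb (distance 0.22), Tm4sf1 (0.38) and C1qc (0.69), and C1qb was at 9.57, 186.5, 43.5 and 144.4 FPKM in young sham and injured, then adult sham and injured cartilage. For Tyrobp they were Ccr1 (0.13), Pirb (0.19) and Lrrc25 (0.23), and for Fcer1g Ctsc (0.25), Ccr1 (0.27) and Ccr2 (0.28). Fcgr1 was nearest to Pf4 (0.22), Msr1 (0.22) and C3ar1 (0.30), and Fcgr2b to Wfdc17 (0.19), Bcl2a1b (0.27) and Lilr4b (0.27). Fcgr3 was nearest to Ptprc (0.09), the leukocyte antigen CD45, with Sp100 (0.23) and Pdpn (0.24) next. Fcgrt was nearest to Mib2 (0.06), Fbxw9 (0.06) and Tpst2 (0.09). None of these 7 genes was among the 3 nearest of another, and Fcgr4 and Trem1, with lower means, were not searched. With 4 libraries such likeness is a description of these values.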

How the data were processed

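RNA sequencing of pooled mouse cartilage was analysed in 4 libraries, 1 per group, mapped to groups by their labels. The authors deposited FPKM per gene on mm10, from stranded, poly-A selected, paired-end libraries. The submitters' processing notes name HISAT2 2.1.0, StringTie 1.3.4d, STAR and SAMtools, and the filters are not given in the sources used here. Division by transcript length and mapped fragments was therefore done before deposit, and fragment counts were not analysed here. For 17286 genes with 1 matched transcript, the lowest products of FPKM and length had a smallest step that, taken as 1 fragment, gives 25600000 to 30800000 fragments per library. Only 35.0% to 37.1% of the lowest values lay within 0.05 of a whole step, so whole fragments were not recovered, the fragment numbers printed are approximate, and no counting interval is given.

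The 18181 genes detected in any library were compared as log2 ratios of FPKM + 1 on the deposited scale, with a threshold of 2-fold. With 1 library per group no p-value and no standard deviation is given. The genes, lists and comparisons were chosen with earlier results of these data known, and list genes were named as examples after their values were seen. The counts, medians and single ratios of the 9 genes and the counts and medians of the lists were recomputed with 0.1 or 5 FPKM added, with genes under 1 FPKM in every library left out, after conversion to TPM, after median-of-ratios or quantile scaling, and with the threshold at 1.5-fold or 3-fold. The 3 genes of nearest pattern were named for each gene with a mean of at least 5 FPKM. Shared sequence was counted as 31-base words of 11 matched GENCODE M21 transcripts. The planned search for protein motifs was not run, and a further promoter motif is not reported here. Python 3.11.15, numpy 2.4.6, pandas 2.3.3 and matplotlib 3.10.9 were used.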

Additional observations from a re-analysis of the deposited data

How the results depend on the processing

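Of 64 counts of genes called and medians over the 9 genes under the 8 alternatives, 61 kept their side of the threshold or stayed within 1.5 times of the reported count. The number of genes 2-fold different between adult and young sham cartilage went from 2 to 1 with a pseudocount of 5 FPKM and to 1 with a threshold of 3-fold, and the number between the injured libraries went from 0 to 1 with a threshold of 1.5-fold. Over 360 single values of the 9 genes, 346 kept their side of the threshold, 9 fell below it and 5 rose above it, and no value past the threshold changed sign. Leaving out genes under 1 FPKM in every library removed none of the 9 genes. The 8 counts and medians and the single values under that alternative therefore could not change. The general level of the libraries shifts with the scaling: 10891 genes reached 1 FPKM in every library, and their median was −0.04 (young injury), 0.23 (adult injury) and −0.30 (adult sham against young sham), compared with −0.02, −0.00 and 0.02 after median-of-ratios scaling. Of 1088 counts and medians over the lists, 878 stayed alike, 163 moved by over 1.5 times, 28 fell below the threshold and 19 rose above it, with moves under both thresholds, both pseudocounts and each scaling. Of the TREM relatives and receptors tied to Tyrobp or Fcer1g, 15 in young and 12 in adult mice passed, and 6 and 4 did so with 5 FPKM added, 23 and 21 with 0.1 FPKM. No paired analysis was possible because each group is 1 library and the labels carry no replicate numbers, and no library could be left out. Genes under 1 FPKM in the sham libraries (Fcgr1, Fcgr4 and Trem1) have the least certain ratios.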

Other observations

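Osteoclasts also use Tyrobp and Fcer1g, as co-stimulatory adaptors beside the receptor for RANK ligand. Of 8 osteoclast markers, 5 were at least 2-fold higher after injury at the young and 7 at the adult age (2 and 4 with 5 FPKM added), with a median ratio (log2) of 1.23 and 1.80. Acp5, the tartrate-resistant acid phosphatase, was at 122.4 FPKM (sham) and 305.6 FPKM (injured) in young, and at 178.6 and 713.2 FPKM in adult cartilage. Oscar, an osteoclast receptor that pairs with the Fcer1g product, was at 1.34, 2.94, 1.36 and 6.24 FPKM, with log2 ratios of 0.75 and 1.62. Between the injured libraries 4 of the 8 markers were at least 2-fold higher in adult mice, against 1.80% of all genes tested. Of these, Atp6v0d2 (7.15 FPKM in young, 16.5 in adult) and Dcstamp (1.33 and 4.24) did not pass with 5 FPKM added.

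Endothelial markers, 5 of 7, were at least 2-fold higher after injury at each age, with medians of 1.89 and 1.19. Markers of other leukocytes had smaller medians, 0.18 and 0.38 over 8 mast cell genes, 0.26 and 0.47 over 8 dendritic cell genes, 0.39 and 0.50 over 9 B cell and plasma cell genes, and 0.16 and 0.38 over 8 T and NK cell genes, at the young and the adult age. The 10 chondrocyte markers had medians of −0.26 and 0.34 after injury.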
